A study of Mus musculus with 12 samples.

Results

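Respiratory complex I, the NADH:ubiquinone oxidoreductase, was followed in the heart through 36 nuclear genes that encode its subunits (Ndufa1 to Ndufa13, Ndufab1, Ndufb2 to Ndufb11, Ndufc1 and Ndufc2, Ndufs1 and Ndufs3 to Ndufs8, and Ndufv1 to Ndufv3). They were taken by name from 20352 genes on the array, by a rule that uses no measured values. The set itself was proposed with earlier results of these data known. A probeset, a short set of probes along a transcript, counted for a gene only where the platform annotation gave it that symbol and no other. That rule found all 36 members, with 207 probesets in all, 3 to 20 per gene and a median of 5.

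The study compared C57BL/6J mice, 12 weeks old, in 2 conditions, 2 weeks after surgery. In 6 infarcted hearts the border zone, the tissue beside the infarct, was sampled, and in 6 sham-operated hearts the matching site. The labels call the arrays of a group biological replicates but do not say how the infarct was made, give the sex of the mice or say whether hearts were pooled. The labels name no transgene, other allele or drug in either group.

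Complex I is the entry point of the respiratory chain. It takes electrons from NADH, passes them along iron-sulphur clusters to ubiquinone and pumps protons across the inner mitochondrial membrane, which feeds ATP synthesis. Its peripheral arm consists of the N module, where NADH is oxidised, and the Q module, where ubiquinone is reduced. Its membrane arm has a proximal and a distal part, which hold the proton channels. The proton-pumping core of the membrane arm is encoded in mitochondrial DNA and the other subunits in the nucleus. Heart muscle has many mitochondria and depends on this chain for nearly all of its ATP.

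Values are signals per gene, read as log2 and taken as the median over the gene's probesets, so a difference of 1 is a 2-fold change. A change is the mean of the infarcted arrays minus the mean of the sham arrays. Each was tested two-sided in a limma fit of all 20352 genes together, with p-values adjusted across them by the Benjamini-Hochberg method, and "lower" or "higher" means an adjusted p under 0.05. The deposited values ran from 1.52 to 14.37, the array medians from 6.997 to 7.026 in sham and from 7.045 to 7.058 in infarcted hearts, and the correlation between any 2 arrays from 0.956 to 0.979. No 2 arrays held identical values. As the array medians are nearly equal, an equal shift of all genes would not be seen. Levels of different genes cannot be compared on arrays, since probes differ in brightness.

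Complex I transcripts were lower in the border zone as a group. In limma, 30 of the 36 members were lower, against a background of 10.2% of all genes, and 0 were higher, also at an unadjusted p under 0.05, against 10.1% of all genes; 20.3% of all genes passed in either direction. All 36 changes were below 0. They ran from -0.70 for Ndufs4 to -0.11 for Ndufc2, with a median of -0.32, which leaves 80.4% of the sham signal. The median change over all genes was -0.039. Members were bright, 31 of them above the 90th percentile of sham signals, and bright genes were lower more often. Among the 4118 genes at least as bright as the dimmest member, 25.4% were lower and the median change was -0.088. That member stood at the 79.77 percentile of sham signals, so many of these genes were dimmer than most members.

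Separation between the hearts showed the same contrast. In 27 of 36 members every infarcted array lay below every sham array, which was so for 5.29% of all genes and for 17.2% of the bright genes. For 35 members no infarcted array reached the mean of the sham arrays, Ndufv2 being the exception. The 6 members that did not pass were Ndufv2, Ndufs7, Ndufa10, Ndufa11, Ndufc2 and Ndufb11.

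**Figure D1:**
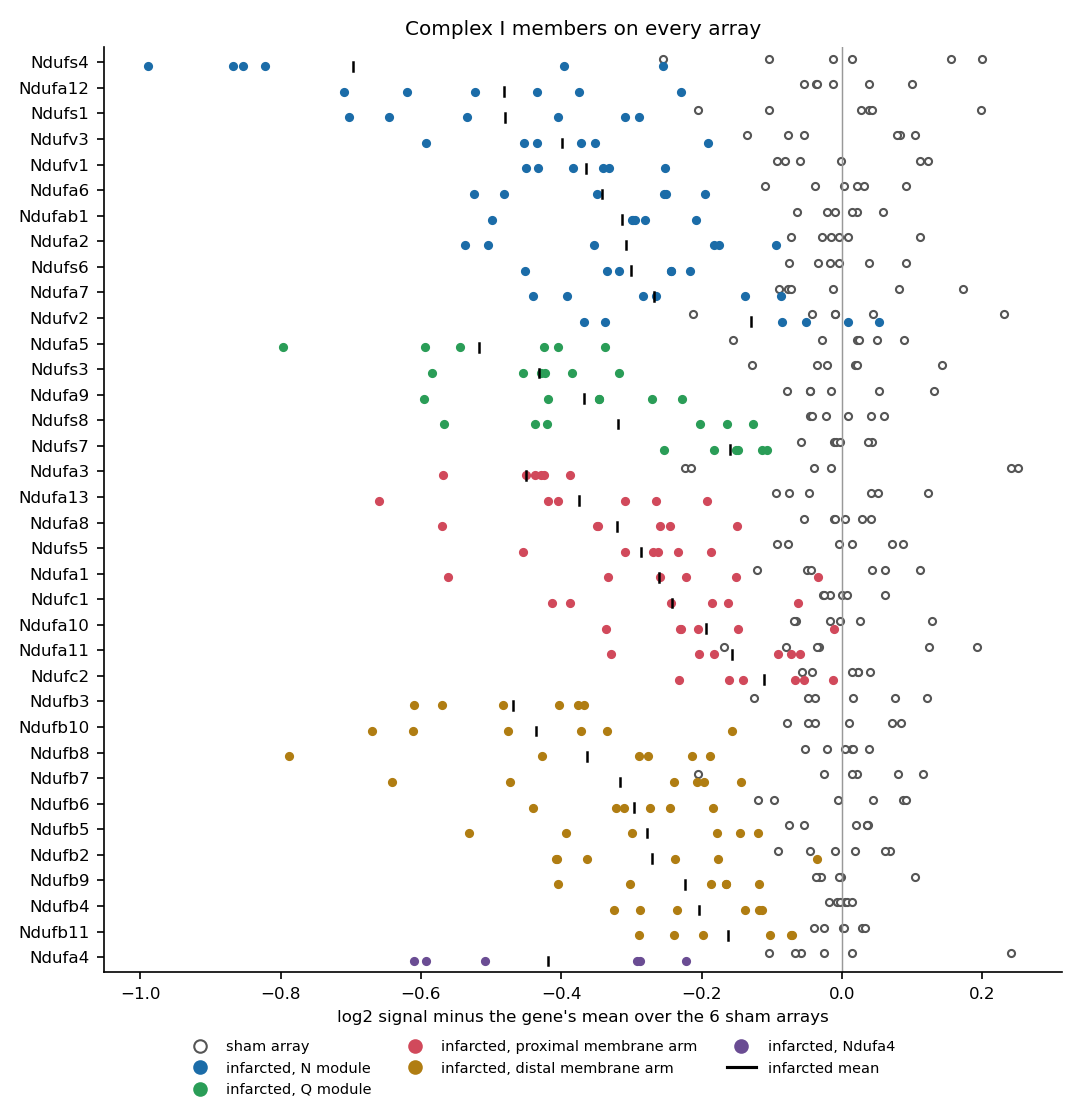
Difference of each of the 36 members (rows, by module) from its own sham mean, on the log2 scale, with 1 point per array (open, 6 sham; filled and coloured by module, 6 infarcted; bars, infarcted means). The infarcted points sit to the left of the sham points in all modules, with no overlap in 27 members, and reach farthest left for Ndufs4.

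Leaving out single arrays removed some calls. The call held in all 12 such fits for 24 members. It was lost in at least 1 of them for Ndufa1, Ndufa7, Ndufb4, Ndufb7, Ndufc1 and Ndufb9, all of which were lost without infarcted replicate 3 and also without infarcted replicate 5, so that 24 members were then lower. The other arrays whose removal ended calls were sham replicate 1 (Ndufa1 and Ndufa7), sham replicate 2 (Ndufa1), sham replicate 3 (Ndufa1 and Ndufc1), sham replicate 4 (Ndufa1, Ndufa7, Ndufb4 and Ndufb7), sham replicate 5 (Ndufb9), sham replicate 6 (Ndufa1 and Ndufb7), infarcted replicate 1 (Ndufa1), infarcted replicate 4 (Ndufa1) and infarcted replicate 6 (Ndufb4).

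Promoter sequences are shown next because the members moved together and because nuclear respiratory genes are textbook targets of shared factors, among them NRF1, YY1, the ETS factor NRF2 (GABP) and the oestrogen-related receptors (ERR). Windows were RefSeq promoters of mouse build GRCm38.p6, from 250 bases before to 50 bases after each transcript start. Of the 36 members 33 were searched, as 35 windows, and Ndufs1, Ndufa2 and Ndufb9 were not. Member windows on a single chromosome were set aside, but windows of all genes there were kept. Both strands were searched for GCGCA and GCGC with any base between them (NRF1), AAGATGGC (YY1), CCGGAAG (ETS) and AAGGTCA (ERR), spellings kept after others had been scanned; none of these spellings contains another. A match is a run of letters and does not show that a factor binds there.

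AAGATGGC stood in 7 of 35 member windows (20%), against 2.75% of 32851 windows of all genes and 3.05% of protein-coding ones. All 7 matches were on the strand of the gene and began 23 to 39 bases after the transcript start. The letters ATGGC also resemble the surroundings of a start codon, which was not examined. Each stretch below, 5′ to 3′ on the strand of the gene, has the spelling in capitals.

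Ndufs4, chr13:114388048-114388065, minus strand: tacaggAAGATGGCggcg
Ndufs6, chr13:73328438-73328455, minus strand: accggcAAGATGGCggcg
Ndufs7, chr10:80249467-80249484, plus strand: gaggccAAGATGGCggcg
Ndufa9, chr6:126849104-126849121, minus strand: tgggagAAGATGGCggcc
Ndufa3, chr7:3617389-3617406, plus strand: aagaacAAGATGGCcggg
Ndufc1, chr3:51408922-51408939, minus strand: cggaacAAGATGGCgccg
Ndufb8, chr19:44555393-44555410, minus strand: aaggtgAAGATGGCtgcc

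These 7 genes span all 4 modules and 6 of them were lower, a share close to the 30 of all 36 members. Their median change was -0.36, against -0.32 for members without the spelling. They include the member with the largest fall, Ndufs4, and a member that did not pass, Ndufs7.

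The NRF1 spelling stood in 8 of 35 member windows (22.9%) from 7 genes, Ndufa5 counting with both of its windows for the same site, against 4.6% of all windows and 6.38% of protein-coding ones. The median change was -0.30 with it and -0.32 without it. CCGGAAG stood in 11.4% of member windows, 8.86% of all windows and 11.6% of protein-coding ones, so it was no more frequent in the members than in protein-coding genes. AAGGTCA stood in 8.57%, 4.72% and 4.08%. The member windows held a median of 59.0% G and C, against 56.3% in protein-coding windows, and the NRF1 spelling is rich in both. Ndufb4 had the most matches, 3 of NRF1 and 1 of ERR, capitalised in the 200 bases before its start.

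Ndufb4, chr16:37654369-37654568, minus strand: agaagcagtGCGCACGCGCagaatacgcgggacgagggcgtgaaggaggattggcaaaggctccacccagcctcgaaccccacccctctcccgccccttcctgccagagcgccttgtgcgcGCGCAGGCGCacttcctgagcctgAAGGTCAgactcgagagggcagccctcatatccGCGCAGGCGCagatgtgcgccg

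The 4 members that differed from the rest of the complex in the test given further on are shown by the 100 bases before their start. Ndufs4, Ndufa5 and Ndufa12 are those with the deeper falls and Ndufc2 is the one with the shallower. For Ndufa5, which has 2 starts in RefSeq, the stretch holds the NRF1 spelling, in capitals, from position -26 relative to the start shown; the same site is at -190 relative to the other start. The stretches of the other 3 hold none of the 4 spellings.

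Ndufs4, chr13:114388095-114388194, minus strand: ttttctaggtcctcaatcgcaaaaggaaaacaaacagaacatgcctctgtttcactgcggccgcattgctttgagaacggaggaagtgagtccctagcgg
Ndufa5, chr6:24527691-24527790, minus strand: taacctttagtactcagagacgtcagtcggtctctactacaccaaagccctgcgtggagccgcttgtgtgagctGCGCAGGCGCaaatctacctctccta
Ndufa12, chr10:94198935-94199034, plus strand: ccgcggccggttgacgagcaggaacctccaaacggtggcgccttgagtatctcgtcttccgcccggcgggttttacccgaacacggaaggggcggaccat
Ndufc2, chr7:97399903-97400002, plus strand: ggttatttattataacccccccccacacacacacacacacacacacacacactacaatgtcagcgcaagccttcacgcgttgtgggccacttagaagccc

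In the N module, the NADH-oxidising tip of the peripheral arm, 10 of 11 members were lower and the median change was -0.34. Ndufv1 carries the FMN cofactor and the NADH site. Its lowest, median and highest signals were 12.38, 12.44 and 12.60 in sham and 12.02, 12.11 and 12.22 in infarcted hearts. The groups did not overlap. The change was -0.37 (95% interval -0.51 to -0.22, 1.29-fold lower, limma adjusted p = 0.00126).

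Ndufs4 is an accessory subunit that holds the N module in place, and its loss in mice or patients causes complex I deficiency. Its signals were 12.28, 12.53 and 12.73 in sham and 11.54, 11.69 and 12.28 in infarcted hearts, given here and below as lowest, median and highest. The highest infarcted array, replicate 2, lay level with the lowest sham array, replicate 5, and 4 of 6 infarcted arrays lay at 11.71 or below. The change of -0.70 (95% interval -0.97 to -0.42, 1.62-fold lower, limma adjusted p = 0.00137) was the largest of the complex.

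Ndufa12 is an accessory subunit that takes the place of the assembly factor Ndufaf2 late in assembly. It gave 10.94, 10.98 and 11.10 in sham and 10.29, 10.52 and 10.77 in infarcted hearts. No arrays of the groups overlapped, and infarcted replicates 3 and 5 were the lowest. The change was -0.48 (95% interval -0.66 to -0.31, 1.40-fold lower, limma adjusted p = 0.000747). Of its 3 probesets 2 were themselves lower, and the gene value matched that of the probeset with the largest fall. The other probesets differed by -0.31 and -0.22.

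Ndufv2, an iron-sulphur subunit next to Ndufv1, did not pass. Its signals were 11.98, 12.19 and 12.43 in sham and 11.83, 12.13 and 12.25 in infarcted hearts. The groups overlapped over most of their range, with 4 of 6 infarcted arrays below the sham mean. The difference was -0.13 (95% interval -0.33 to 0.07, limma adjusted p = 0.377), an interval that includes the median change of the complex.

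The other 7 members of the module were lower, by 0.27 to 0.48. Ndufs1, the largest subunit and the carrier of several iron-sulphur clusters, fell by 0.48 (limma adjusted p = 0.00191). Ndufv3 fell by 0.40, but 1 of its 5 probesets was itself lower, and without bright probesets its value was -0.20 (limma adjusted p = 0.331). Ndufa6, of the LYR family, fell by 0.34. Ndufab1, the mitochondrial acyl carrier protein that LYR proteins bind, fell by 0.31, and Ndufa2 also by 0.31. Ndufs6, a zinc-binding subunit, fell by 0.30 and Ndufa7 by 0.27. Ndufa7 was the only one of these 7 with overlapping groups.

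In the Q module, the ubiquinone-reducing part, 4 of 5 members were lower and the median change was -0.37. Ndufs3 is a core subunit that joins early in assembly. It gave 11.86, 11.99 and 12.13 in sham and 11.40, 11.56 and 11.67 in infarcted hearts, without overlap. The change was -0.43 (95% interval -0.58 to -0.29, 1.35-fold lower, limma adjusted p = 0.000398).

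Ndufa5, an accessory subunit of the same module, had the second largest fall of the complex. Its signals were 10.10, 10.28 and 10.34 in sham and 9.46, 9.77 and 9.92 in infarcted hearts. Infarcted replicate 3 was lowest, and the highest infarcted array lay below the lowest sham array. The change was -0.52 (95% interval -0.69 to -0.34, 1.43-fold lower, limma adjusted p = 0.00048).

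Ndufs7 holds the last iron-sulphur cluster, which hands electrons to ubiquinone, and was the brightest member. It gave 13.24, 13.29 and 13.34 in sham and 13.04, 13.15 and 13.19 in infarcted hearts. All infarcted arrays lay below all sham arrays, yet the difference of -0.16 (95% interval -0.28 to -0.04) had a limma adjusted p of 0.0605. It passed with the mean over probesets (-0.19, limma adjusted p = 0.012), with centred arrays, without dim probesets and with limma's trend. Ndufa9, at the joint of the arms, fell by 0.37 and Ndufs8, a ferredoxin-like core subunit, by 0.32, both without overlap.

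In the proximal membrane arm 6 of 9 members were lower, with a median change of -0.26. Ndufa3, a small membrane subunit, gave 9.59, 9.78 and 10.06 in sham and 9.24, 9.38 and 9.42 in infarcted hearts. The groups did not overlap, and sham replicates 3 and 6 were the highest. The change was -0.45 (95% interval -0.64 to -0.26, 1.37-fold lower, limma adjusted p = 0.0028). Of its 5 probesets 3 were themselves lower, and the gene value matched that of the probeset with the largest fall. The other probesets differed by -0.41 to -0.05.

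Ndufa13, also known as GRIM-19, gave 11.12, 11.21 and 11.34 in sham and 10.56, 10.86 and 11.02 in infarcted hearts. No array overlapped, and infarcted replicate 5 was lowest. The change was -0.37 (95% interval -0.55 to -0.20, 1.30-fold lower, limma adjusted p = 0.0046). It rests on 1 of 5 probesets, the only one of them that was itself lower; with the probesets above the 95th percentile of signal (10.86) left out, only dim ones remained and the value was 0.047 (limma adjusted p = 0.861), and the call was also lost with the mean over probesets.

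Ndufc2, a subunit at the membrane arm's joint, had the smallest change. It gave 12.86, 12.93 and 12.95 in sham and 12.68, 12.81 and 12.90 in infarcted hearts. The groups overlapped, with 4 of 6 infarcted arrays below all sham arrays. The difference was -0.11 (95% interval -0.24 to 0.02, limma adjusted p = 0.224), so the interval ends short of the median change of the complex.

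Ndufa8, a cysteine-rich subunit of the intermembrane face, fell by 0.32 and Ndufs5, of the same kind, by 0.29, both without overlap. The X-linked Ndufa1 fell by 0.26 and Ndufc1 by 0.24, the calls that single arrays removed. Ndufa10, which has a kinase-like fold, differed by -0.19 (limma adjusted p = 0.06) and passed in 6 alternatives, among them the mean over probesets (-0.25, limma adjusted p = 0.0018) and quantile normalization (-0.20, limma adjusted p = 0.0435). Ndufa11 differed by -0.16 (limma adjusted p = 0.183).

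In the distal membrane arm 9 of 10 members were lower, with a median change of -0.29. Ndufb3 was the dimmest member and had the smallest p of all 36. It gave 8.43, 8.54 and 8.67 in sham and 7.94, 8.11 and 8.19 in infarcted hearts. The groups stood well apart. The change was -0.47 (95% interval -0.62 to -0.32, 1.38-fold lower, limma adjusted p = 0.000284). Only 1 of its 3 probesets was itself lower, by 0.44 (limma adjusted p = 0.00422 in the probeset fit). The others differed by -0.27 and -0.20 without passing, so no single probeset fell as far as the gene value.

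Ndufb10, a cysteine-rich subunit on the intermembrane face, gave 9.68, 9.74 and 9.84 in sham and 9.08, 9.33 and 9.60 in infarcted hearts. There was no overlap, and infarcted replicates 5 and 6 were lowest. The change was -0.44 (95% interval -0.62 to -0.25, 1.35-fold lower, limma adjusted p = 0.00234).

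The remaining members of the distal arm that were lower fell by 0.20 to 0.36. Ndufb8, whose protein is often blotted as a sign of assembled complex I, fell by 0.36 (limma adjusted p = 0.0126), and its infarcted arrays spread from 10.73 to 11.33 against 11.47 to 11.56 in sham. Ndufb7 fell by 0.32, Ndufb6 by 0.30, Ndufb5 by 0.28, Ndufb2 by 0.27, Ndufb9 by 0.22 and Ndufb4 by 0.20. The X-linked Ndufb11 differed by -0.16 (limma adjusted p = 0.0793), with no overlap between groups. It passed with the mean over probesets, with centred arrays, with limma's trend and without bright probesets, where its value was -0.33 (limma adjusted p = 0.0175). The call of Ndufb2 was lost with the mean over probesets (-0.15, limma adjusted p = 0.197) and without dim probesets (-0.22, limma adjusted p = 0.0637), and that of Ndufb4 without bright probesets (-0.36, limma adjusted p = 0.0919). RefSeq lists close copies of Ndufa11, Ndufb4 and Ndufs6 and pseudogenes of Ndufa12, Ndufab1 and Ndufs5, so the probesets of these genes may also read those transcripts.

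Ndufa4 is listed among complex I genes by its name, although later biochemical work placed its protein in complex IV. It gave 10.57, 10.64 and 10.92 in sham and 10.07, 10.28 and 10.46 in infarcted hearts. Sham replicate 1 stood above the other sham arrays, and the groups did not overlap. The change was -0.42 (95% interval -0.61 to -0.23, 1.34-fold lower, limma adjusted p = 0.00396). Without it 29 of 35 members were lower and the median change was -0.31. Among core subunits, those conserved from bacteria, 4 of 6 were lower with a median of -0.34, and among the supernumerary ones 25 of 29 with a median of -0.31.

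The decrease ran along the transcripts. Of the 207 member probesets, 205 had a change below 0. In the limma fit on all 241576 probesets of the array, 102 (49.3%) were lower, against 4.3% of all probesets, and 0 were higher, against 6.39%. Every probeset was lower in Ndufv1, Ndufs4, Ndufs3 and Ndufb6, and none in Ndufv2, Ndufa7, Ndufa11, Ndufc2, Ndufb2 and Ndufb4. The 6 probesets of Ndufs4 fell by 0.62 to 0.97, and the 3 of Ndufc2 differed by -0.12 to -0.11. Both probesets above 0 were dim, 1 of Ndufa13 at a sham signal of 6.37 (0.20, adjusted p = 0.507) and 1 of Ndufb2 at 3.99 (0.16, adjusted p = 0.749). Without infarcted replicate 5 the number of lower probesets was 67.

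**Figure D2:**
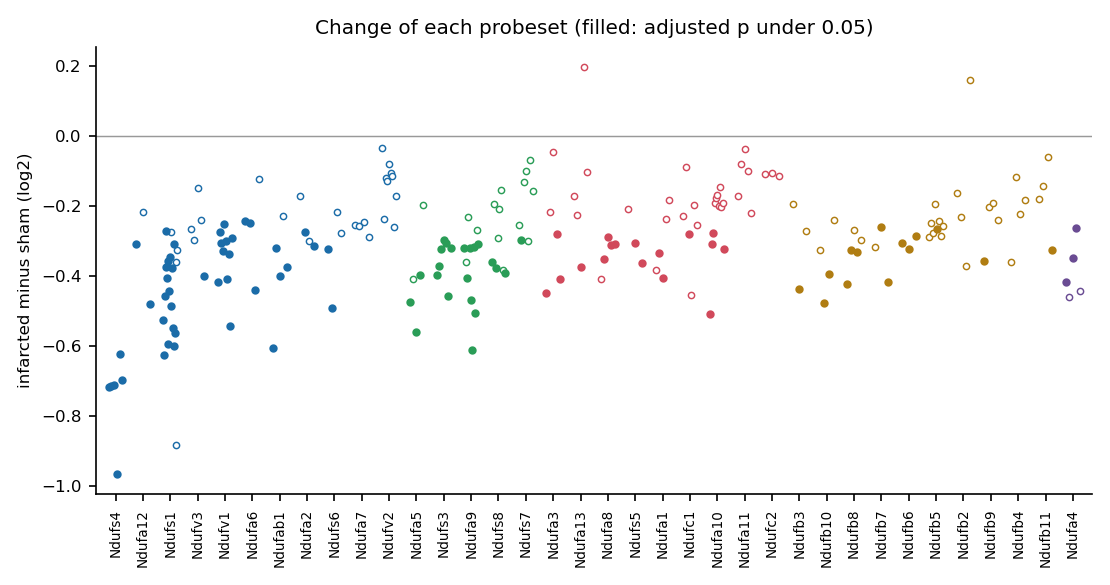
Change of each of the 207 member probesets (infarcted minus sham, log2) by gene, coloured by module; filled points had an adjusted p under 0.05 in the probeset fit. Of all points, 205 lie below 0 and 102 are filled; all 6 of Ndufs4 lie at -0.62 or lower, and the 3 of Ndufc2 lie at -0.12 to -0.11.

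Members were next compared with the complex as a whole. On each array the median over the other members, each first centred on its own mean, was subtracted from every gene, and limma was run again over all genes. A shift shared by the complex is removed in this way. On this scale 3 members were lower and 1 higher, against a background of 1.67% of genes lower and 48.6% higher. Ndufs4 fell further than the complex, by a difference of -0.40 (95% interval -0.68 to -0.12, limma adjusted p = 0.0209), and so did Ndufa5, at -0.22 (95% interval -0.37 to -0.07, limma adjusted p = 0.0172). Ndufc2 stood 0.19 above the complex (95% interval 0.06 to 0.32, limma adjusted p = 0.0171). For the other 32 members this test found no difference from the rest, among them Ndufs1 at -0.18 (limma adjusted p = 0.0694) and Ndufb3 at -0.17 (limma adjusted p = 0.0707).

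The third lower member, Ndufa12, differed by -0.18 (95% interval -0.32 to -0.04, limma adjusted p = 0.0308). That call was lost in 8 of 12 fits that each left out 1 array, those without sham replicates 1, 2, 4 and 6 and without infarcted replicates 1, 3, 5 and 6, and with the mean over probesets in place of the median (-0.05, limma adjusted p = 0.471). Ndufs4, Ndufa5 and Ndufc2 kept their calls in all 12. Ndufa5 lost its call with the mean over probesets (-0.12, limma adjusted p = 0.0555) and without bright probesets (-0.11, limma adjusted p = 0.21). Ndufs4 lost it only where the members were not centred first (-0.28, limma adjusted p = 0.114). That uncentred median was the reference first planned; with it Ndufa5 and Ndufa12 were lower than the complex and 6 members higher, and the centring was adopted after it had called unchanged members in simulated data.

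**Figure D3:**
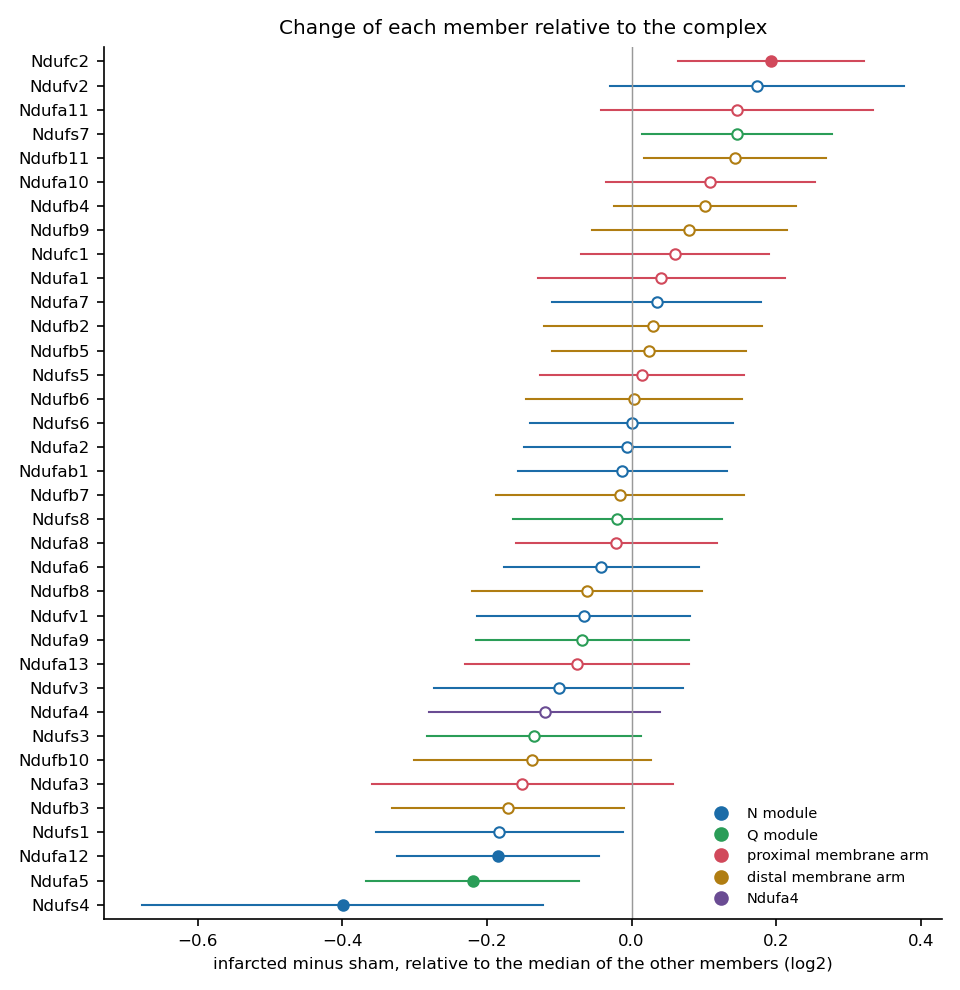
Change of each member relative to the median of the other members (infarcted minus sham, log2, with 95% intervals); filled points had an adjusted p under 0.05. Ndufs4 (-0.40), Ndufa5 (-0.22) and Ndufa12 (-0.18) lie below 0 and Ndufc2 (0.19) above it. Of the others, the intervals of Ndufs1, Ndufb3, Ndufs7 and Ndufb11 miss 0 without passing the adjusted threshold.

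Many members are close to the top of the signal range, where an array can understate a change. A level of 12, picked after the values were seen, splits them. Of the 11 members above 12 in sham hearts, 6 were lower and the median change was -0.20; of the 25 at 12 or below, 24 were lower and the median was -0.34. Among probesets, 30 of 74 above 12 were lower (median -0.24) and 72 of 133 at 12 or below (median -0.33). Of the 6 members that did not pass, 5 were among the bright ones: Ndufv2, Ndufs7, Ndufa10, Ndufc2 and Ndufb11.

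Brightness did not order the members strictly. Ndufs4, at a sham median of 12.53, had the largest fall. Across the 36 members the Pearson correlation of change with sham level was 0.29 and the Spearman correlation 0.36, and without Ndufs4 Pearson's was 0.45. These describe genes read on the same 12 arrays and carry no test.

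**Figure D4:**
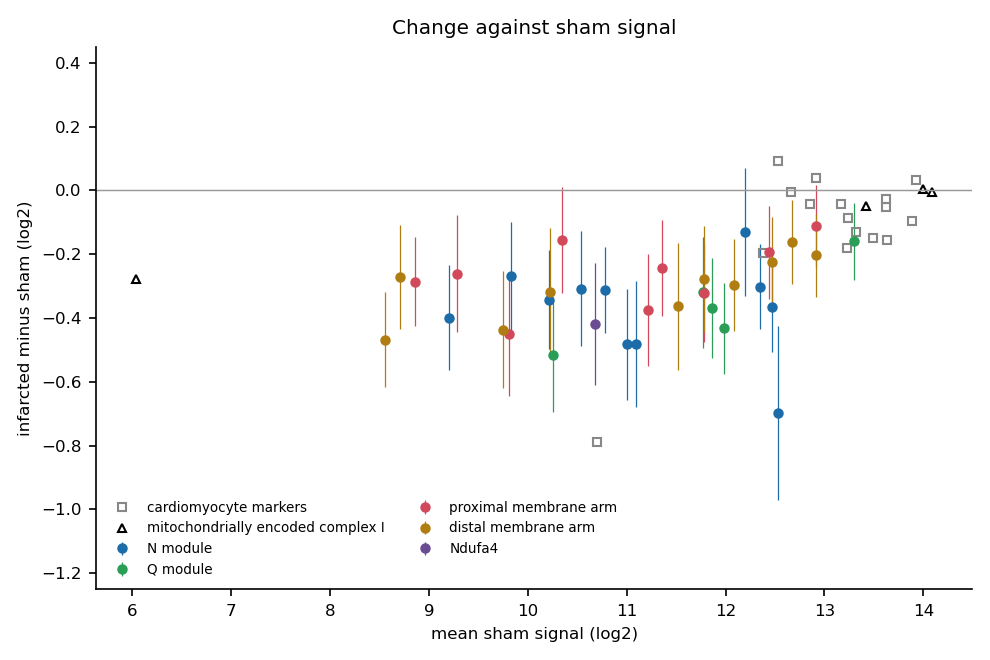
Change (infarcted minus sham, log2) against mean sham signal (log2) for complex I members (filled, by module, with 95% intervals), mitochondrially encoded subunits (triangles) and cardiomyocyte markers (squares). Members at 12 or below have a median of -0.34 and those above 12 one of -0.20; ND1, ND2 and ND4L, at 13.42 to 14.09, lie near 0, and 15 of 16 cardiomyocyte markers, all but Tcap, lie at -0.20 or above.

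The subunits encoded in mitochondrial DNA could be read for ND1, ND2, ND4L and ND6 of 7 listed; ND3, ND4 and ND5 were not analysed here. In limma 0 of 4 were lower or higher (1 lower at an unadjusted p under 0.05). ND1, a core membrane subunit beside the ubiquinone site, had a mean of 14.09 ± 0.03 in sham and 14.09 ± 0.04 in infarcted hearts (SD, n = 6 each), a difference of -0.0035 (95% interval -0.12 to 0.11, limma adjusted p = 0.975). ND2, a proton-pumping subunit, differed by 0.0044 (limma adjusted p = 0.968) and ND4L by -0.048 (limma adjusted p = 0.638). ND6, which is on the other strand of mitochondrial DNA and was dim at 6.04, differed by -0.28 (limma adjusted p = 0.117), and was lower without sham replicate 1 (-0.37, limma adjusted p = 0.0171).

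Relative to the nuclear complex, ND1 stood 0.30 higher (limma adjusted p = 0.0027), ND2 0.31 higher (limma adjusted p = 0.00328) and ND4L 0.25 higher (limma adjusted p = 0.00828), and these calls held in all 20 alternatives that gave a value. On this scale 48.6% of all genes were higher. Because the complex itself fell, a gene without a change can pass, so these calls are not particular to mitochondrially encoded subunits. ND1, ND2 and ND4L lie within 1 unit of the highest value on the arrays, 14.37. The part of that ceiling in the difference was not tested.

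The hearts with infarcts differed among themselves. The median deviation of the 36 members from their sham means was -0.23, -0.20, -0.44, -0.26, -0.43 and -0.29 in infarcted replicates 1 to 6, against -0.04 to 0.02 in sham arrays. Every infarcted heart was thus below every sham heart. Replicate 5 was the lowest array for 19 members, replicate 3 for 15 and replicate 6 for 2. The spread was larger in the infarcted group for 31 of 36 members, with a median SD of 0.13 against 0.07 in sham.

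Tissue markers moved beside the complex. The samples are bulk tissue, so fewer cells of a type and less RNA per cell cannot be told apart. All 10 fibroblast markers were higher, with a median change of 1.69, and all 8 macrophage markers, with a median of 0.60, beside 10.1% of all genes higher. The median fibroblast deviation was 1.54, 1.47, 1.94, 1.58, 1.76 and 1.77 in infarcted replicates 1 to 6, against -0.19 to 0.15 in sham, so replicate 3, highest in fibroblast markers, was with replicate 5 the lowest in complex I. Of 8 endothelial markers 0 were lower or higher in limma (2 higher at an unadjusted p under 0.05), and of 4 smooth muscle markers 2 were higher (Cnn1 by 1.05 and Acta2 by 0.54). Their part in the complex I result was not tested.

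Cardiomyocyte markers, which check the tissue label, were bright in all hearts. Of 16 markers, 1 was lower, beside 10.2% of all genes. It was Tcap, a Z-disc protein, which fell by 0.79 (limma adjusted p = 0.000147). The median change of the 16 markers was -0.07, against -0.32 for complex I. Relative to the complex 10 of 16 were higher, beside 48.6% of all genes. The count of lower markers depends on the processing: it was 8 of 16 with the mean over probesets, 6 with arrays centred on their medians, 6 with limma's trend and 2 without sham replicate 3. Of the 16 markers, 15 were above 12 in sham, where the median change was -0.05. With bright probesets left out, 9 markers had a value, 5 of them were lower (Tnnt2, Tnni3, Myl2, Ryr2 and Tcap), their median change was -0.39 and 2 of 9 were higher than the complex, beside a median of -0.34 for the 30 complex I members with a value. A difference between contractile and complex I transcripts is therefore not shown for probesets below the bright range.

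Markers of the atrium and of fat stood out in single hearts. The median deviation of 4 atrial markers was 2.60 in infarcted replicate 4, 1.67 in replicate 5 and 1.21 in replicate 6. It lay between -0.35 and -0.07 in the other infarcted hearts and between -0.32 and 0.58 in sham. Nppa, also a marker of stressed ventricle, was the 1 of 4 that was higher (2.04). Of 5 fat markers 0 were lower or higher in limma (also 0 at an unadjusted p under 0.05), but their median deviation was 2.36 in infarcted replicate 5. Of 3 brown fat markers 0 passed (1 lower and 1 higher at an unadjusted p under 0.05), and their median level lay between 4.31 and 5.23 on all arrays, a dim level. Without infarcted replicates 4 and 5, 22 of 36 complex I members were lower, all of them among the 30, and the median change was -0.28. That fit still held infarcted replicate 6, with its raised atrial markers.

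**Figure D5:**
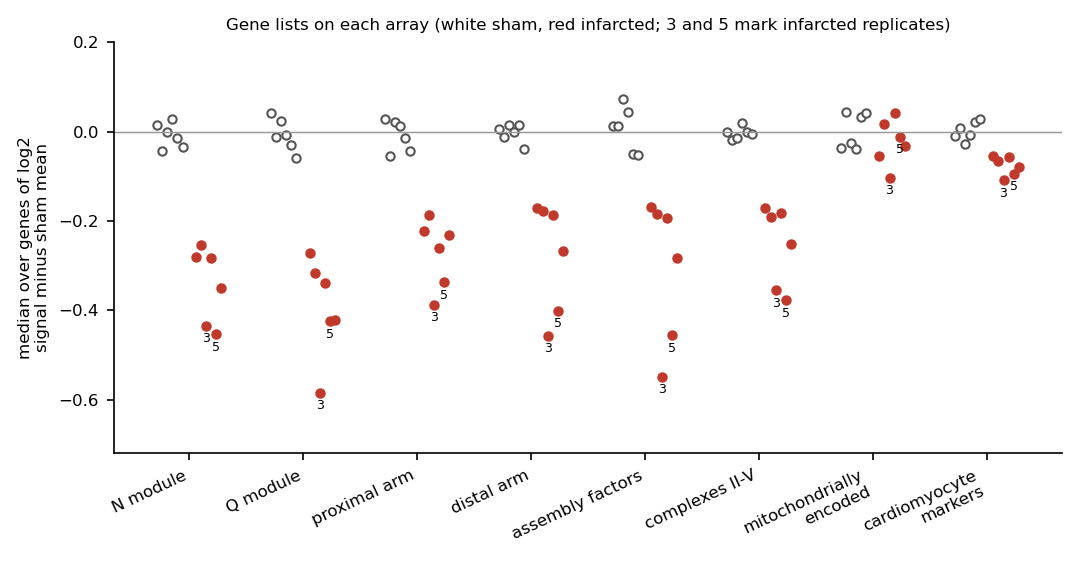
Median over each list's genes of the difference from the sham mean (log2), with 1 point per array (white, sham; red, infarcted; infarcted replicates 3 and 5 are numbered). Infarcted arrays lie at -0.45 to -0.25 for the N module and -0.58 to -0.27 for the Q module, with replicates 3 and 5 low in the 4 modules, the assembly factors and complexes II to V, while the mitochondrially encoded list lies at -0.10 to 0.04 and cardiomyocyte markers at -0.11 to -0.06.

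Assembly factors, which build complex I and leave it, were lower in 10 of 17 measured genes of 19 listed, with a median change of -0.31 and 0 higher. Of all genes 10.2% were lower and 10.1% higher. Ecsit, part of the complex that assembles the membrane arm, fell by 0.60 (limma adjusted p = 0.000405). Nubpl, which delivers iron-sulphur clusters, fell by 0.65 (limma adjusted p = 0.00455) and Ndufaf3, an early factor of the Q module, by 0.35 (limma adjusted p = 0.00438). The groups did not overlap for these 3 genes. The count was 4 without infarcted replicate 3, 5 without infarcted replicate 5 and 6 without sham replicate 3 or sham replicate 4.

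Nuclear subunits of the other respiratory complexes were also lower: 27 of 39 passed, 0 were higher and the median change was -0.27. The share lower was 10.2% over all genes and 25.4% over genes at least as bright as the dimmest complex I member. Complex II had 4 of 4 lower, led by Sdha, the flavin subunit (-0.45), Sdhc (-0.37) and Sdhb (-0.34). Complex III had 6 of 9 lower, led by Cyc1 (-0.36), Uqcrfs1, the Rieske iron-sulphur protein (-0.38), and Uqcrc1 (-0.32). Complex IV had 6 of 11 lower, led by Cox6a2, a muscle form (-0.27), Cox4i1 (-0.26) and Cox7a1 (-0.29). Complex V had 11 of 15 lower, led by Atp5e (-0.49), Atp5k (-0.31) and Atp5g1 (-0.40). In the test relative to complex I, 0 of these 39 genes were lower and 5 higher, beside 1.67% and 48.6% of all genes. No test compared the complexes as sets. With bright probesets left out, complex IV had 1 of 6 lower and complex V 5 of 11.

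Among 10 regulators of nuclear mitochondrial genes 4 were lower and 0 higher, beside 10.2% of all genes lower and 10.1% higher. Esrrb fell by 0.36 (limma adjusted p = 0.0118), Esrra by 0.34 (limma adjusted p = 0.0245) and Esrrg by 0.41 (limma adjusted p = 0.0321), all nuclear receptors of the ERR family. Ppargc1b, their coactivator, fell by 0.41 (limma adjusted p = 0.039). Esrrb kept its call in all 20 alternatives, Esrra and Esrrg in 14 each and Ppargc1b in 10. Without infarcted replicate 3, infarcted replicate 5 or sham replicate 4 only 1 regulator was lower, and without sham replicate 1, sham replicate 6 or infarcted replicate 6 there were 2.

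The other regulators did not pass. Ppargc1a, the coactivator best known for driving these genes, differed by -0.04 (95% interval -0.29 to 0.21, limma adjusted p = 0.861), but by -0.47 (limma adjusted p = 0.0241) with bright probesets left out. Nrf1 differed by 0.05 and Yy1 by -0.06, and neither passed.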

How the data were processed

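RNA of 6 infarcted and 6 sham hearts was read on one-colour arrays. Per the labels' protocols, RNA was extracted with Trizol and biotin-labelled cDNA made with a whole-transcript kit. Affymetrix Power Tools is named in the submitters' processing notes. How background, probeset summary and normalization were handled is not stated in the labels or file headers. The authors' deposited values were read as log2 because of their range, and folds rest on that reading.

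Of 241576 probesets, 212097 had 1 gene symbol in the platform annotation, 4475 several and 25004 none. Symbols were updated through RefSeq synonyms, which left 20352 genes. Gene values are medians over probesets. No label gives a batch or hybridisation date. Both groups carry replicate numbers 1 to 6, and no label ties equal numbers to each other.

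The main test was limma 3.58.1 in R 4.3.3 (lmFit, eBayes) without covariates, Benjamini-Hochberg adjustment and a threshold of 0.05. The test relative to the complex was planned with the plain median of member values. In simulated data that reference called unchanged members, so each member was centred first, a choice made after the data had been seen, and the plain median is given beside it. The gene fit was also tested on simulated data. Alternatives were the mean over probesets, centred or quantile-normalized arrays, no probesets under the 30th (5.58) or above the 95th percentile (10.86), limma's trend, a replicate block, and arrays left out.

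Values per array are given for the 2 smallest p in each module, the 2 largest and 2 smallest changes, the 2 brightest members and those that differed from the complex. Other lists are named by their 3 smallest p. The rule for members uses names only, but members and lists were proposed with earlier results of these data known. The precision is limited by the number of arrays, 6 per group. Figures were drawn with matplotlib 3.10.9.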

Additional observations from a re-analysis of the deposited data

Results flagged for a closer look

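Of the 72 sets of 6 values (36 members in 2 groups), 4 held an array that stood apart from the other 5 by Dixon's 95% criterion. About 1 in 20 sets is marked by chance. Ndufab1 was lowest in infarcted replicate 5, at 10.29, a gap of 0.688 of the group's range. Ndufa3 was lowest in infarcted replicate 3, at 9.24 (0.656 of the range). Ndufb9 was highest in sham replicate 5, at 12.58 (0.751 of the range), and its call was lost without that array. Ndufa4 was highest in sham replicate 1, at 10.92 (0.655 of the range). The calls of Ndufab1, Ndufa3 and Ndufa4 held with each array left out in turn.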

How the results depend on the processing

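The number of lower members was 22 to 33 over the alternatives with all 36 members and 24 of the 30 that had a value without bright probesets; 0 were higher in any. Leaving out 1 array gave 24 to 30 lower members and median changes of -0.34 to -0.27. Over all members and alternatives, 654 changes kept their direction and side of the threshold, 45 lost and 14 gained the threshold, and 1 reversed, Ndufa13 without bright probesets (0.047). Of calls, Ndufa13 and Ndufb2 were lost with the mean over probesets. Same-numbered arrays of the groups correlated by -0.0514 to 0.1008, with 2 of 6 sham and 2 of 6 infarcted arrays closest to their own number, so the numbers were not used to pair. With the replicate block 26 members, 48 probesets and 2 regulators were lower.

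Members lower than the complex numbered 1 without bright probesets, 5 with limma's trend and 2 to 4 with 1 array left out. Members higher than the complex numbered 3 with the mean over probesets, 3 with quantile normalization, 2 without bright probesets, 4 with limma's trend and 6 with uncentred members, the reference first planned (2 were then lower); the centring was chosen after seeing the data. Lower probesets ranged from 67 to 98 with 1 array left out, assembly factors from 4 to 11, regulators from 1 to 4 and mitochondrially encoded subunits from 0 to 1. Without infarcted replicates 4 and 5, 6 assembly factors and 1 regulator were lower. Complex II had 2 lower, complex IV 1 and complex V 5 without bright probesets, where fewer genes have a value. Atp5k lost its call there (-0.22, limma adjusted p = 0.271). Complex IV had 10 lower with centred arrays and 10 with limma's trend. The cause of the other shifts was not tested. The number of arrays and the top of the signal range limit what can be seen for bright members.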
